A study of Homo sapiens with 20 samples.

Results

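The gelatinases, the membrane-type matrix metalloproteinases with a transmembrane domain and the tissue inhibitors of metalloproteinases (TIMPs) were followed in U2-OS cells, a human osteosarcoma line, by RNA-seq. The members were the rows of the deposited count table with the symbols MMP2 and MMP9 (gelatinases), MMP14, MMP15, MMP16 and MMP24 (membrane-type), and TIMP1, TIMP2, TIMP3 and TIMP4. These are 10 of the 20314 genes in the table. Of the 10 members, 9 passed the filter on low counts. TIMP4 did not, with 0 to 3 counts in each library. The 20 libraries formed 4 groups of 5: untreated cells, cells harvested 90 minutes after irradiation (post-IR) with 20 Gy, cells harvested 7 days after the same dose, and non-irradiated cells with an shRNA knockdown of NFKBIA, the gene of the NF-κB inhibitor IκBα. All cells grew in DMEM with FCS. The study prepared its RNA samples in quintuplicate and calls them biological replicates.

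Matrix metalloproteinases are zinc enzymes that are made as inactive proenzymes and cut collagens, other matrix proteins and cell surface proteins. MMP2 and MMP9 are secreted and degrade gelatin and basement membrane collagen. MMP14, also named MT1-MMP, sits in the cell membrane, cleaves fibrillar collagen and activates proMMP2 in a complex in which TIMP2 serves as the bridge. The TIMPs block the active site of these enzymes, TIMP1 being a poor inhibitor of MMP14 and a ligand of proMMP9, and TIMP3 staying bound to the matrix. In tumour and senescent cells these genes are studied for invasion and for the senescence-associated secretory phenotype (SASP), the set of factors that senescent cells release.

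Several facts of the samples bear on the values. The knockdown group came from cells that carry an shRNA vector, selected with puromycin according to the methods, where the inducible vectors are switched on by days of doxycycline and cells with a scrambled shRNA and doxycycline serve as controls. The labels name no vector, but the figure legends of the study refer its RNA-seq knockdown to the doxycycline-inducible shRNA, with doxycycline given beforehand. Neither says whether the untreated cells of these libraries carried a vector or received doxycycline. None of the 20 libraries is labelled as scrambled, so that vector, selection and doxycycline cannot be told apart from the loss of IκBα. Total counts ran from 22535659 to 40390961 per library, the lowest in untreated replicate 5, which also stood farthest from its group (mean correlation of 0.977 with the other untreated libraries). Lanes and groups overlapped little: 4 untreated libraries filled lane 2, untreated replicate 5 shared lane 3 with 3 libraries at 90 minutes, 2 libraries at 90 minutes shared lane 4 with 2 at 7 days, 3 at 7 days shared lane 5 with knockdown replicate 1, and the other knockdown libraries filled lane 6. Of 10 osteoblast and osteosarcoma markers 8 were tested, and SP7 and IBSP had at most 3 counts in every library. The summed level of these markers was 4031 to 4793 CPM (counts scaled to the library size with TMM factors) in untreated libraries, 3700 to 4009 at 90 minutes, 2778 to 3203 at 7 days and 2831 to 2996 in the knockdown. Single markers did not move together: against untreated cells SPARC was lower at 7 days (2137 to 1275 CPM) while SPP1 (12.0 to 74.3 CPM) and ALPL (26.9 to 45.4 CPM) were higher, and COL1A1 (1974 to 617 CPM) and ALPL (26.9 to 6.84 CPM) were lower in the knockdown. The summed level of 7 leukocyte markers was 4.79 to 12.4 CPM in untreated libraries, 4.61 to 6.57 at 90 minutes, 29.02 to 34.7 at 7 days and 4.62 to 5.68 in the knockdown, with CD3E at 3 counts or fewer in every library at 7 days. Most of that sum at 7 days was CD68, a lysosomal protein abundant in macrophages, at 23.2 CPM (2.69 in untreated cells), and ITGAM rose from 2.17 to 5.95 CPM. PTPRC (1.05 and 1.34 CPM) and CSF1R (0.605 and 0.761 CPM) had no call, in untreated cells and at 7 days. Epithelial markers summed to 634 to 1114 CPM in untreated libraries, 750 to 910 at 90 minutes, 659 to 691 at 7 days and 635 to 706 in the knockdown, most of it KRT8 and KRT18. At 7 days 5 of the 7 were lower than in untreated cells, KRT14 by the most (4.82 to 0.735 CPM), beside 14.4% of all genes tested. ESRP1 was higher (0.152 to 0.475 CPM), having passed the filter only through that group. In the knockdown 4 were lower, beside 7.53% of all genes tested. KRT5, one of the 7, passed the filter only through the untreated libraries (10 to 19 counts) and those at 90 minutes (9 to 21 counts). A lower level of KRT5 at 7 days or in the knockdown was thus a condition of its being tested. Neuronal markers summed to 132 to 180 CPM in untreated libraries, 136 to 171 at 90 minutes, 206 to 233 at 7 days and 221 to 243 in the knockdown, and SYP had the largest change of the 4 at 7 days, from 6.41 to 38.8 CPM. Endothelial markers stayed between 8.14 and 11.1 CPM in all libraries. The part of these marker levels in the results was not tested, and in bulk RNA a change in the number of cells of a type and a change in RNA per cell cannot be told apart.

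Levels were first compared between the members on a scale per length, the CPM divided by the gene length in kilobases that the table gives. In untreated cells TIMP1 was by far the most abundant at 927 ± 98.2 CPM per kilobase (SD, n = 5), rank 6 of the 14992 genes tested. MMP2 followed with 206 ± 24.5 CPM per kilobase, rank 106. TIMP2 (83.0 ± 5.98) and MMP9 (82.0 ± 4.12 CPM per kilobase) came next and did not differ beyond their spread. MMP14 stood at 51.6 ± 1.23 CPM per kilobase, rank 877, and was followed by MMP24 (21.2 ± 1.82) and TIMP3 (20.5 ± 2.33), a second pair within its spread. The lowest of the tested members were MMP16 at 6.21 ± 1.02 and MMP15 at 4.88 ± 0.401 CPM per kilobase. At 7 days post-IR the order had changed at several places: TIMP1 reached 1945 ± 85.9 CPM per kilobase, rank 2 of all genes tested, MMP14 with 76.4 ± 3.90 stood beside TIMP2 at 71.0 ± 1.93 with overlapping ranges, and MMP9 lay below both at 43.9 ± 1.88. In the NFKBIA knockdown MMP9 was at 16.9 ± 1.33 CPM per kilobase, rank 3288 against rank 441 in untreated cells. TIMP1 held rank 8 there, as it did at 90 minutes.

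**Figure D1:**
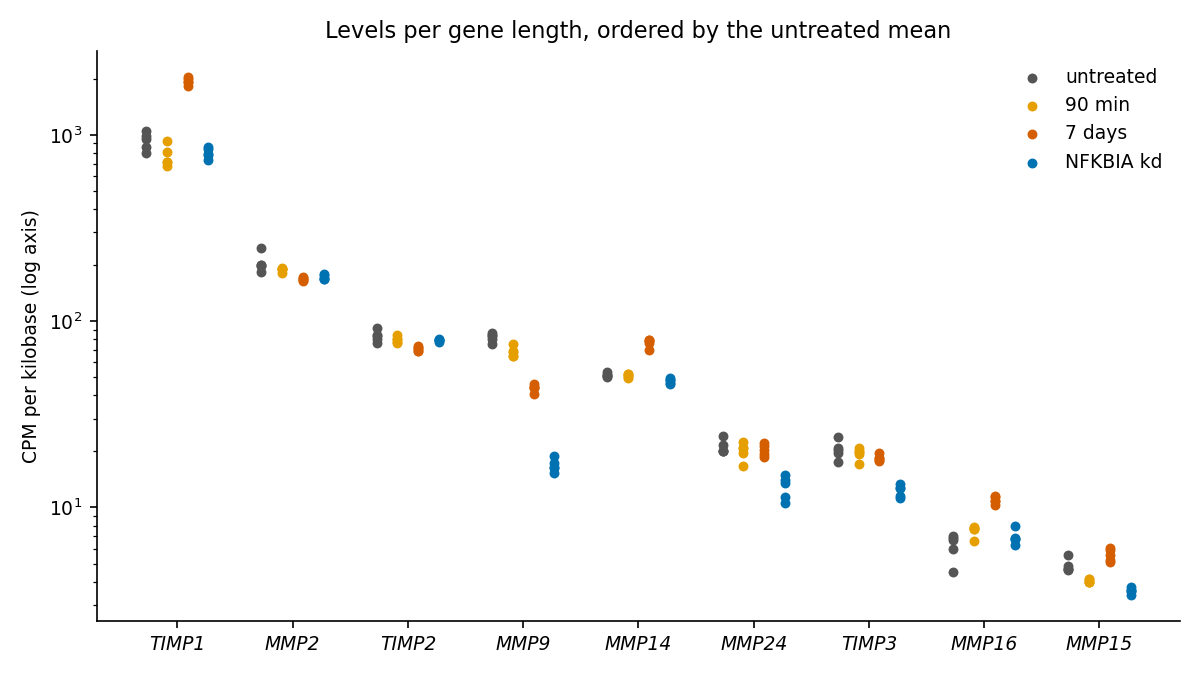
Level of each tested member in CPM per kilobase of the deposited gene length on a log axis, with 1 point a library and a colour for each of the 4 groups (n = 5 each). TIMP1 lies above all other members in every group and has a mean of 1945 at 7 days, while MMP9 has means of 82.0 in untreated cells and 16.9 in the knockdown.

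The 300 bases around the RefSeq start (250 before, 50 after) were read for the 6 members with an entry in the promoter table of RefSeq for GRCh38.p14, and the stretches ahead of any annotated exon are shown for 2 members that were higher at 7 days (MMP14, TIMP1) and 2 that were lower in the knockdown (MMP24, TIMP3). All lie on the plus strand: MMP14 at chr14:22836335-22836556, TIMP1 at chrX:47582186-47582312, MMP24 at chr20:35226440-35226653 and TIMP3 at chr22:32801455-32801700. Capitals mark GGGCGG, the GC box, on either strand.
MMP14: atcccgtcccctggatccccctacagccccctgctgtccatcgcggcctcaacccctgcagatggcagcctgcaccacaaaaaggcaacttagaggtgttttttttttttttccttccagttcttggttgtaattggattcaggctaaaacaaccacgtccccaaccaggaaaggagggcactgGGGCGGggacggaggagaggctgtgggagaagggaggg
TIMP1: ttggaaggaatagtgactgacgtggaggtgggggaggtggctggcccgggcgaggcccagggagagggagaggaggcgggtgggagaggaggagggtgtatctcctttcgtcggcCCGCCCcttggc
MMP24: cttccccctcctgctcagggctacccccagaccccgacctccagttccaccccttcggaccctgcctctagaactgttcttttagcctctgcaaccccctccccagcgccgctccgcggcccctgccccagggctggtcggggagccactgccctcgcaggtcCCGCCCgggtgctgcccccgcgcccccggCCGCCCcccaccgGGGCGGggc
TIMP3: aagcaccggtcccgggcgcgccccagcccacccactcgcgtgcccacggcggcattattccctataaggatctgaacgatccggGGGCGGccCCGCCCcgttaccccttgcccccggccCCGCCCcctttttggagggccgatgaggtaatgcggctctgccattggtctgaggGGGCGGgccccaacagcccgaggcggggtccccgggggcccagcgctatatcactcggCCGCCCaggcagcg
The GC box matched 1 time in the 300 bases of MMP14, 2 times in TIMP1, 3 times in MMP24 and 5 times in TIMP3, and it is found in 45.0% of the 35116 promoters of that length. The other motifs searched on both strands had no match in these 4 windows. They were TGANTCA (bound by AP-1, in 7.71% of all promoters), the κB consensus (5.91%), TATAAA (11.5%), TTCNNNGAA (7.66%) and the p53 half-site consensus (6.63%). A match or its absence in such a window describes letters only.

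At 90 minutes post-IR no member was called against untreated cells in either direction. Genes were called when they differed by more than 0.5 on the log2 scale with an adjusted p below 0.05 (edgeR's quasi-likelihood test, Benjamini-Hochberg adjustment over all 14992 genes). These thresholds called 2.08% of all genes tested higher and 1.57% lower at this time. Of the 9 members tested, 4 had an adjusted p under 0.05 by edgeR without reaching the fold (21.3% of all genes had such a p), 4 had an unadjusted p under 0.05, and DESeq2 also called none. The log2 fold change was -0.27 for MMP15 (with its standard error, SE, of 0.058 and an edgeR adjusted p = 0.0025), -0.25 for MMP9 (0.056, 0.0031) and -0.28 for TIMP1 (0.081, 0.019). MMP16 had 0.27 (0.090, edgeR adjusted p = 0.036). Only for MMP15, of the 9 tested, were the groups fully separated, 17.5 to 18.3 CPM at 90 minutes against 20.4 to 24.6 in untreated cells, a separation that 12.3% of all genes tested showed. For the other members the log2 fold change lay between -0.12 (MMP2, SE 0.0585) and -0.01 (MMP14, 0.042). Within lane 3, 3 libraries at 90 minutes against untreated replicate 5 alone, several values were larger: -0.41 (SE 0.087, edgeR adjusted p = 0.00525) for MMP2, -0.45 (0.11) for MMP15, -0.31 (0.11) for TIMP3 and -0.25 (0.085) for TIMP2, whereas MMP16 had 0.11 (0.11). With lane as a term of the model these were -0.40, -0.45, -0.30, -0.24 and 0.12, and no member reached the fold needed, although 11.9% of all genes tested were called higher and 13.6% lower in that fit. The lone untreated library is taken to vary like the others, and it stood far above its group for MMP2 and MMP15.

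At 7 days post-IR MMP9 fell, TIMP1, MMP14 and MMP16 rose, and the other 5 tested members had no call. These 3 genes called higher and 1 called lower, of 9 tested, stand beside 16.7% and 14.4% of all genes tested. Libraries did not overlap between the groups for 6 of the 9 members, against 44.8% of all genes, and 7 had an adjusted p under 0.05 by edgeR, against 64.2%. The median log2 fold change of the members was -0.06, that of all genes 0.01.

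MMP9 (ENSG00000100985) had 188, 196, 177, 195 and 202 CPM in untreated replicates 1 to 5. At 7 days post-IR its values were 95.5, 104, 103, 107 and 103 CPM. All 5 irradiated libraries were thus low and none came near the untreated ones. Its log2 fold change was -0.90 (SE 0.057, edgeR adjusted p = 1.55e-11), and the groups differed by a two-sided exact permutation test of log2 CPM (p = 0.0079, the smallest possible for 5 against 5). MMP9 shares 18.4% of its exonic bases with the antisense gene SLC12A5-AS1 in the GENCODE 29 annotation. The methods name stranded libraries, and whether the counting used that strand is not given in the sources used here. The other gelatinase, MMP2 (ENSG00000087245), ranged from 903 to 1221 CPM in untreated cells and from 815 to 848 CPM at 7 days. Its log2 fold change of -0.29 (SE 0.059, edgeR adjusted p = 0.00022) was below the fold needed for a call, although the libraries did not overlap.

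Of the membrane-type enzymes, MMP14 (ENSG00000157227), the collagenase at the cell surface, had 229, 225, 230, 239 and 227 CPM in untreated replicates 1 to 5. At 7 days its libraries had 354, 312, 353, 347 and 340 CPM. The lowest irradiated library, replicate 2, was well above the highest untreated one. The log2 fold change was 0.57 (SE 0.042, edgeR adjusted p = 1.8e-10), just past the threshold on the fold. MMP16 (ENSG00000156103), or MT3-MMP, a proMMP2 activator described mainly in brain, had 72.7, 84.7, 81.2, 54.7 and 82.8 CPM in untreated replicates 1 to 5, with replicate 4 well below the rest. Its values at 7 days were 140, 131, 126, 131 and 137 CPM, all above every untreated library. The log2 fold change was 0.82 (SE 0.091, edgeR adjusted p = 9.15e-08). MMP15 (ENSG00000102996), MT2-MMP, had 20.4 to 24.6 CPM in untreated cells and 22.6 to 26.7 at 7 days, and its log2 fold change was 0.19 (SE 0.057, edgeR adjusted p = 0.0056). MMP24 (ENSG00000125966), MT5-MMP, known from neural tissue, had overlapping libraries and a log2 fold change of -0.06 (SE 0.090).

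Among the inhibitors, TIMP1 (ENSG00000102265) had 1536, 1702, 1431, 1870 and 1760 CPM in untreated replicates 1 to 5. At 7 days post-IR it had 3451, 3671, 3579, 3445 and 3265 CPM. Every library at 7 days was far above every untreated library. The log2 fold change was 1.07 (SE 0.081, edgeR adjusted p = 3.1e-10), a 2.10-fold higher level, and TIMP1 took 0.331% to 0.371% of all counts in these libraries. TIMP2 (ENSG00000035862) ranged from 428 to 518 CPM in untreated cells and from 388 to 415 at 7 days, without overlap but with a log2 fold change of only -0.23 (SE 0.047, edgeR adjusted p = 0.00029). TIMP3 (ENSG00000100234) had a log2 fold change of -0.15 (SE 0.071, edgeR adjusted p = 0.064). TIMP4 (ENSG00000157150) summed to 4 counts over the 5 untreated libraries, 1 at 90 minutes, 10 at 7 days and 6 in the knockdown, too few for any comparison.

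**Figure D2:**
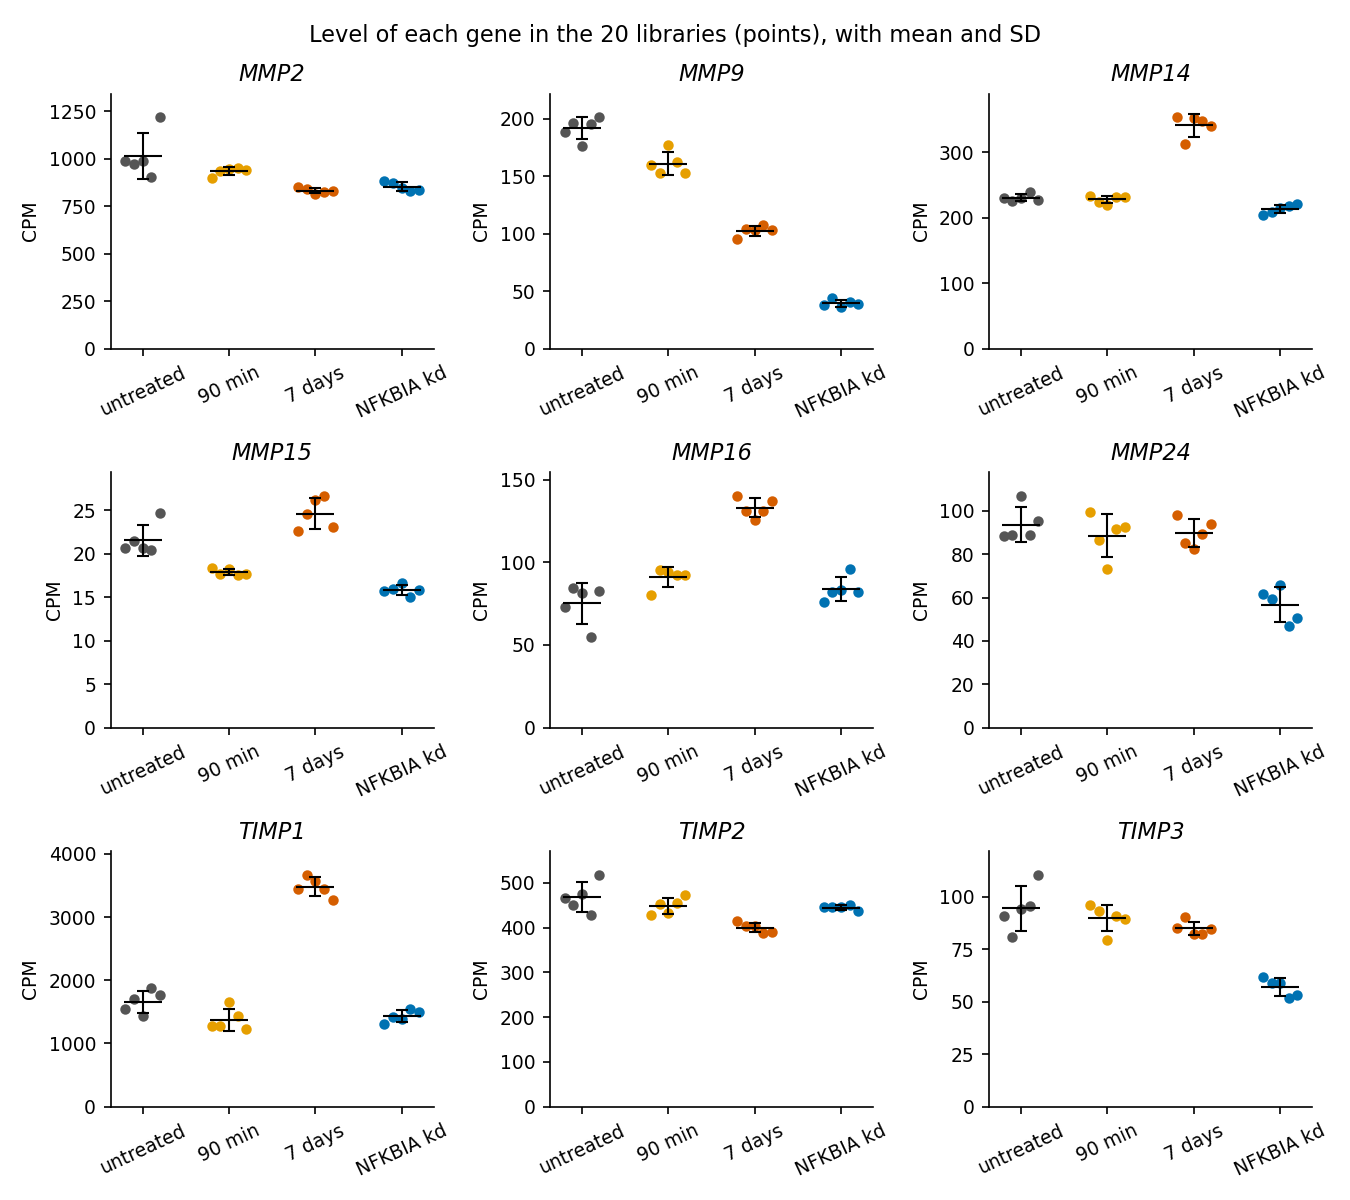
Level of each tested member in every library, in CPM on linear axes from 0, with the mean and SD of each group in black (n = 5, kd for knockdown). TIMP1, MMP14 and MMP16 are above all untreated libraries at 7 days, MMP9 is below them, and MMP9, MMP24 and TIMP3 are below them in the NFKBIA knockdown.

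No untreated library ran in a lane with a 7 days library, so no value within a lane exists for this comparison. With the lane as a term of the model, which links the groups through untreated replicate 5 and the libraries at 90 minutes, all 4 calls held: -0.96 (SE 0.13) for MMP9, 0.52 (0.094) for MMP14, 0.67 (0.22) for MMP16 and 1.09 (0.20) for TIMP1. That fit called 21.8% of all genes tested higher and 19.5% lower. In the same fit MMP2 was also called lower (-0.57, 0.086, edgeR adjusted p = 3.03e-05), TIMP2 had -0.42 (0.088) and TIMP3 -0.35 (0.14) without a call, and MMP15 turned to -0.0251 (0.12). Untreated replicate 5 stood far above its group for MMP2 (1221 CPM) and MMP15 (24.6 CPM). In fits without lane that left out single libraries, MMP2 had -0.35 to -0.23. MMP14 and TIMP1 are on the list of second-phase SASP genes that the study chose with these same libraries, so that their rise is not independent of that list.

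The time points were also compared with each other, since 2 libraries of each shared lane 4. The same members were called: TIMP1 (log2 fold change 1.34, SE 0.082), MMP14 (0.58, 0.042) and MMP16 (0.55, 0.090) were higher at 7 days than at 90 minutes, and MMP9 was lower (-0.65, 0.057). All 4 had edgeR adjusted p values of 2.05e-05 or less. These 3 higher and 1 lower stand beside 16.8% and 12.6% of all genes tested, and the 7 members with no overlap beside 61.8%. An adjusted p under 0.05 by edgeR was reached by 7 members and 60.9% of all genes. TIMP1 had 1272, 1277, 1650, 1438 and 1220 CPM at 90 minutes, less than the lowest 7 days library by a wide margin. MMP9 had 160, 153, 177, 162 and 153 CPM, between the untreated and the 7 days levels with some overlap with the untreated ones. MMP14 had 233, 224, 220, 231 and 231 CPM and MMP16 80.2, 95.2, 94.1, 92.7 and 92.6. The values at 90 minutes thus sat near the untreated ones for both of these membrane-type enzymes, though 4 of the 5 libraries lay above every untreated one for MMP16. Within lane 4 alone, 2 libraries against 2, the log2 fold changes were 1.41 for TIMP1, 0.51 for MMP14, 0.53 for MMP16 and -0.67 for MMP9, all with edgeR adjusted p values below the threshold. MMP16 lost its call without replicate 1 at 90 minutes (0.48, SE 0.095). It also lost it when the edgeR p was adjusted by Bonferroni correction instead (adjusted p = 0.0797 from edgeR). MMP15 had 0.46 (SE 0.058, edgeR adjusted p = 5.7e-07), under the fold needed.

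The knockdown was checked at its target. NFKBIA (ENSG00000100906) had 28.6, 23.5, 27.4, 35.0 and 42.0 CPM in untreated replicates 1 to 5 and 13.04, 11.2, 12.1, 12.0 and 12.4 CPM in the knockdown. All knockdown libraries were lower than all untreated ones, with a log2 fold change of -1.36 (SE 0.11, edgeR adjusted p = 4.9e-09). At 7 days post-IR NFKBIA had 28.4 to 32.4 CPM, within the untreated range.

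In the knockdown MMP9, TIMP3 and MMP24 were lower than in untreated cells and no member was higher. These 3 of 9 called lower compare with 7.53% of all genes tested, and none called higher with 5.18%. DESeq2 called the same numbers, and 7 members had an unadjusted p under 0.05. Libraries did not overlap for 6 members, against 24.1% of all genes, and 7 members had an edgeR adjusted p under 0.05, against 40.5%. The median log2 fold change was -0.25 for the members and -0.01 for all genes.

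MMP9 had 38.2, 44.2, 36.0, 40.3 and 38.3 CPM in knockdown replicates 1 to 5, a 4.86-fold lower level than in untreated cells. The knockdown libraries lay below those of every other group, so that the order for MMP9 was untreated, 90 minutes, 7 days and knockdown, with overlap only between the first pair. The log2 fold change was -2.28 (SE 0.060, edgeR adjusted p = 1.1e-16). TIMP3, the matrix-bound inhibitor, had 90.7, 80.7, 93.9, 95.7 and 110.4 CPM in untreated replicates and 61.6, 58.9, 58.8, 51.5 and 53.1 in the knockdown. All knockdown libraries were below all untreated ones (log2 fold change -0.73, SE 0.071, edgeR adjusted p = 7.1e-08), and the libraries at 90 minutes (79.3 to 96.1 CPM) and at 7 days (81.9 to 90.2 CPM) lay within or near the untreated range. MMP24 had 88.4, 88.6, 107.0, 88.8 and 95.5 CPM in untreated replicates and 61.7, 59.4, 65.7, 46.7 and 50.4 CPM in the knockdown. Its knockdown libraries were also below every library of the other groups, with a log2 fold change of -0.72 (SE 0.091, edgeR adjusted p = 2.3e-06) against untreated cells. MMP24 lies within MMP24OS on the other strand and shares 18.1% of its exonic bases with it.

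The other members had no call in the knockdown. MMP15 had a log2 fold change of -0.45 (SE 0.058, edgeR adjusted p = 3.8e-06) with 15.0 to 16.6 CPM, below every library of the other groups. MMP2 had -0.25 (0.059), TIMP1 -0.21 (0.081) and MMP14 -0.11 (0.042), each with an edgeR adjusted p under 0.05. TIMP2 (-0.07, 0.047) and MMP16 (0.16, 0.0905) missed that threshold. With lane as a term, MMP9 (-2.42, SE 0.17) and TIMP3 (-0.78, 0.18) kept their calls, and MMP24 had -0.67 (0.28, edgeR adjusted p = 0.075). Of all genes tested, 13.3% were called higher and 14% lower with that term. MMP15 gained a call in that fit (-0.72, 0.15), and MMP16 turned to -0.12 (0.27). The fit links the groups through untreated replicate 5, which stood far above its group for MMP15 (24.6 CPM). Knockdown and untreated libraries shared no lane.

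**Figure D3:**
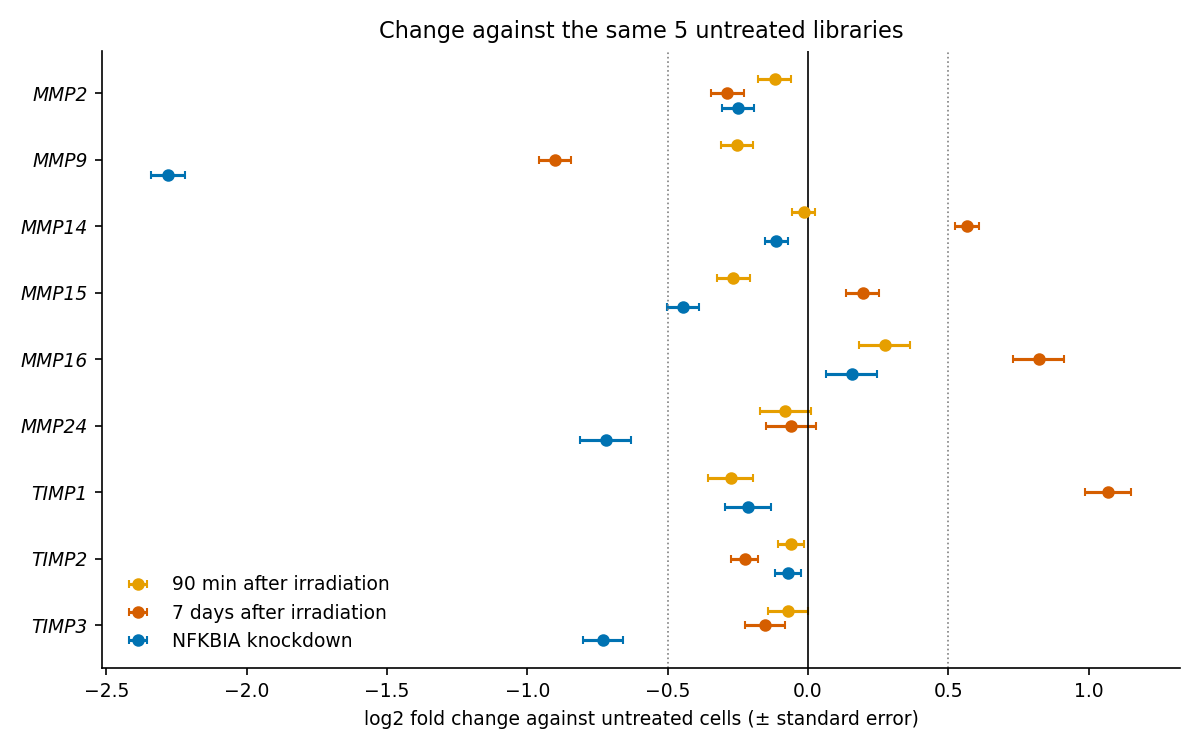
Log2 fold change of each tested member at 90 minutes, at 7 days and in the knockdown against the same untreated libraries, with its standard error from edgeR as a bar (5 libraries against 5) and lines at the thresholds of -0.5 and 0.5. MMP9 is at -0.90 at 7 days and -2.28 in the knockdown, while TIMP1 is at 1.07 at 7 days and -0.21 in the knockdown.

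Set directly against the knockdown, the 7 days libraries had 7 of the 9 members called higher and none lower, by edgeR and by DESeq2, and 8 members at an unadjusted p under 0.05. Across all genes tested 15.8% were called higher and 9.89% lower, and libraries did not overlap for 8 members, against 60.7% of all genes. An edgeR adjusted p under 0.05 was found for 8 members and 57.4% of all genes. MMP9 (log2 fold change 1.38, SE 0.058) and TIMP1 (1.28, 0.082) differed most. MMP14 (0.68), MMP16 (0.67), MMP24 (0.66), MMP15 (0.64) and TIMP3 (0.58) followed, each with an edgeR adjusted p of 2.62e-06 or less. For MMP15 the values at 7 days were 22.6, 24.6, 26.2, 26.7 and 23.0 CPM against 15.7, 15.9, 16.6, 15.0 and 15.8 in the knockdown, so that all irradiated libraries were higher. TIMP2 (-0.15, 0.047) and MMP2 (-0.04, 0.0585) were not called. In lane 5, where 3 libraries at 7 days met knockdown replicate 1, the log2 fold changes were 1.44 for MMP9, 1.38 for TIMP1, 0.75 for MMP14, 0.78 for MMP16, 0.51 for MMP24 and 0.68 for MMP15, and 0.42 for TIMP3, which lost its call there. The spread of the lone knockdown library is taken to be that of the others.

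Against the libraries at 90 minutes, the knockdown had the same 3 members called lower as against untreated cells, MMP9 (log2 fold change -2.03, SE 0.059), TIMP3 (-0.66, 0.071) and MMP24 (-0.64, 0.091), all with edgeR adjusted p values of 8.5e-06 or less. None was called higher by edgeR or DESeq2, and 6 members had an unadjusted p under 0.05. The background was 7.60% of genes lower and 6.54% higher, and 43.6% with libraries that did not overlap, as for 5 members. An edgeR adjusted p under 0.05 was found for 4 members and 41.7% of all genes. These groups shared no lane, and with lane as a term MMP9 kept its call (-2.11, SE 0.14) while TIMP3 (-0.47, 0.14, edgeR adjusted p = 0.0381) and MMP24 (-0.53, 0.23, edgeR adjusted p = 0.148) lost theirs. With that term 3.52% of all genes tested were called higher and 4.4% lower.

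The ratio of enzyme to inhibitor was described on the per-length scale, in each library. MMP14 to TIMP2, the partners in proMMP2 activation, was 0.624 ± 0.055 in untreated cells, 0.642 ± 0.027 at 90 minutes, 1.08 ± 0.060 at 7 days and 0.604 ± 0.023 in the knockdown (SD, n = 5). The range at 7 days, 0.974 to 1.13, lay above the 0.553 to 0.707 of the untreated libraries. MMP2 to TIMP2 stayed between 2.10 and 2.69 in all libraries. TIMP1 exceeded MMP9 11.3-fold in untreated cells and 11.1-fold at 90 minutes, and 44.2-fold at 7 days and 47.3-fold in the knockdown. The 7 days ratio came with a TIMP1 that had risen and an MMP9 that had fallen, whereas in the knockdown MMP9 had fallen and TIMP1 had no call. These ratios are of RNA and carry no test.

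**Figure D4:**
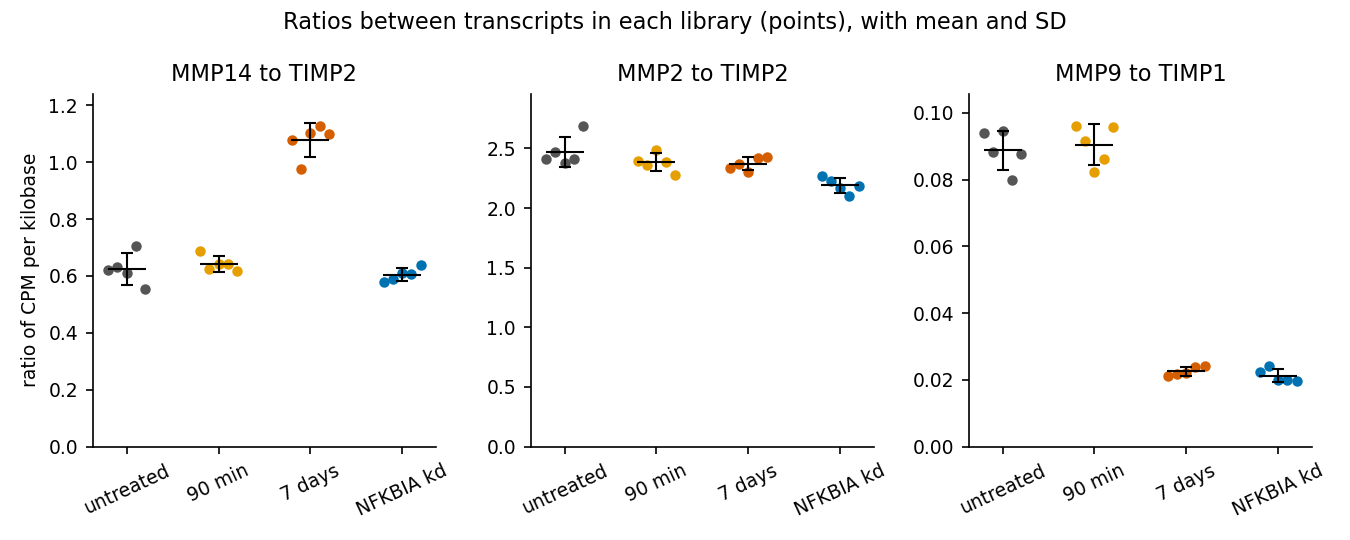
Ratio of CPM per kilobase between members in every library, on linear axes from 0, with the mean and SD of each group in black (n = 5). MMP14 to TIMP2 is 1.08 on average at 7 days and 0.604 to 0.642 in the other groups, and MMP9 to TIMP1 is lower at 7 days and in the knockdown than in the other groups.

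Other genes of the same proteolytic network were described from lists. Of 17 further matrix metalloproteinases 15 were in the table and 8 passed the filter. MMP1 and MMP10 passed it only through the libraries at 7 days, so that a higher level there was a condition of their being tested, and they are left out of the counts at that time. At 7 days 1 of the other 6 was higher and 1 lower, against untreated cells (median log2 fold change 0.18, all genes 0.01), beside 16.7% and 14.4% of all genes tested. MMP3, the stromelysin that can activate proMMP9, rose from 0.196 ± 0.156 to 8.75 ± 2.08 CPM, a log2 fold change of 5.39 (SE 0.27, edgeR adjusted p = 4.7e-13). MMP1, the interstitial collagenase, was at or under 3 counts in the untreated libraries, and its level at 7 days was at least 8.04-fold higher than a floor of 3 counts per library. MMP10, another stromelysin, had 23 to 43 counts a library at 7 days and at most 9 in any other library. MMP13, another collagenase, fell with a log2 fold change of -1.21 (SE 0.13). In the knockdown 2 of the 8 were higher and 1 lower (median 0.25, all genes -0.01), beside 5.18% and 7.53% of all genes tested. MMP13 rose from 7.47 ± 1.45 to 48.0 ± 4.91 CPM (log2 fold change 2.70, SE 0.12), MMP17 rose (0.59, 0.11) and MMP7 fell (-1.94, 0.41). MMP7 was scarce already in untreated cells, at 0.404 ± 0.190 CPM and at most 22 counts a library. MMP13 therefore differed in the opposite direction from untreated cells in the 2 comparisons, and directly it was lower at 7 days than in the knockdown by a log2 fold change of -3.91 (SE 0.13, edgeR adjusted p = 5.6e-16). At 90 minutes none of the 8 was called by edgeR or DESeq2, and 0 had an unadjusted p under 0.05. Of all genes tested, edgeR called only 2.08% higher and 1.57% lower at that time.

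Among 36 activators, surface partners, clearance receptors and other inhibitors, 31 were tested. THBS2, a matrix protein whose complexes with MMP2 are cleared by LRP1, passed the filter only through the libraries at 7 days, with 24 to 41 counts there and at most 8 in any other library, and is left out of the count at that time. Of the other 30, 10 were higher at 7 days and 4 lower (median 0.21), beside 16.7% and 14.4% of all genes tested. The share called lower was thus near that of all genes. At 90 minutes none was called by edgeR or DESeq2, with 6 at an unadjusted p under 0.05, beside 2.08% and 1.57% of all genes tested. CD44, a hyaluronan receptor that holds MMP9 and MMP14 at the cell surface, rose from 253 ± 49.3 to 766 ± 13.4 CPM (log2 fold change 1.60, SE 0.085). The protease inhibitor A2M rose (1.35, 0.11), as did the clearance receptor LRP1 (0.63, 0.12), which was named after its value was seen. ITGB3, the β3 integrin subunit, fell (-1.87, 0.16). RECK, a membrane-anchored inhibitor of these enzymes, had -0.12 (0.055) and FURIN, which processes proMMP14, 0.04 (0.053), neither with a call. In the knockdown none of the 31 was called higher by edgeR or DESeq2 (8 at an unadjusted p under 0.05) and 4 were lower (median -0.07), beside 5.18% and 7.53% of all genes tested, with THBS1 from 395 ± 56.7 to 86.3 ± 6.66 CPM (log2 fold change -2.20, SE 0.097), A2M at -1.06 (0.12) and CAV1 at -0.63 (0.052). A2M was thus higher at 7 days and lower in the knockdown than in untreated cells, and directly higher at 7 days than in the knockdown by 2.41 (0.12).

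Of 30 ADAM and ADAMTS proteases, some of them targets of TIMP3, 28 were tested. ADAMTS19 passed the filter only through the libraries at 7 days, with 9 to 15 counts there, and is left out of the count at that time. Of the other 27, 12 were higher at 7 days and 4 lower (median 0.36), where 16.7% and 14.4% of all genes tested were called, so that the share called lower was near that of all genes. The largest rises were in ADAMTS18 (log2 fold change 2.04, SE 0.32), ADAMTS14 (2.03, 0.15), ADAM28 (1.89, 0.13) and ADAMTS9 (1.67, 0.12). The sheddases ADAM10 (0.08, 0.052) and ADAM17 (0.16, 0.042) had no call. In the knockdown 4 were higher and 6 lower (median -0.03), beside 5.18% and 7.53% of all genes tested, with ADAM28 (1.54, 0.13), ADAMTS18 (1.42, 0.35) and ADAMTS9 (0.87, 0.12) higher and ADAMTS2, a procollagen peptidase, lower (-0.93, 0.089). At 90 minutes 1 of the 28 was higher, ADAMTS5 (1.04), with libraries that overlapped, where 2.08% of all genes tested were called higher. At that time 7 of the 28 had an unadjusted p under 0.05 in edgeR.

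Of 24 extracellular and surface substrates 21 were tested. At 7 days 6 were higher and 5 lower (median 0.05), beside 16.7% and 14.4% of all genes tested. COL3A1, a fibrillar collagen, fell from 213 ± 39.5 to 19.1 ± 2.37 CPM (log2 fold change -3.49, SE 0.12) and the proteoglycan ACAN fell (-3.28, 0.24), whereas the syndecan SDC1 (1.63, 0.085) and the transglutaminase TGM2 (1.60, 0.064) rose. In the knockdown none was called higher by edgeR or DESeq2 (3 at an unadjusted p under 0.05) and 9 of the 21 were lower (median -0.47, all genes -0.01), beside 5.18% and 7.53% of all genes tested. COL1A1, the main chain of collagen I, fell from 1974 ± 247 to 617 ± 35.8 CPM (log2 fold change -1.68, SE 0.072), and the basement membrane genes LAMA3 (-2.44, 0.13), COL4A3 (-2.38, 0.44) and COL4A4 (-1.54, 0.10) fell with it. COL4A3 was scarce, with at most 21 counts in any library at 90 minutes (mean 0.440 CPM) and 19 at 7 days (0.554 CPM). At 90 minutes none of the 21 was called by edgeR or DESeq2, with 2 at an unadjusted p under 0.05. The shares of all genes tested were 2.08% higher and 1.57% lower by edgeR at that time.

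**Figure D5:**
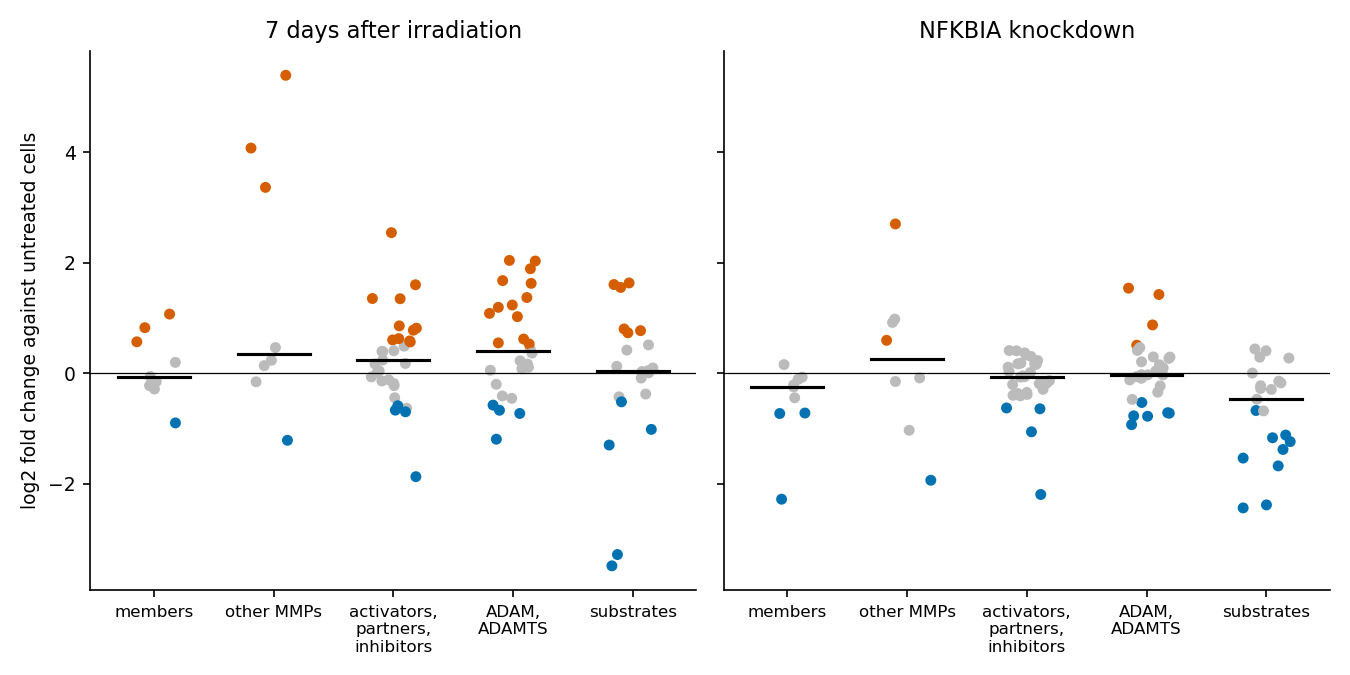
Log2 fold change of the genes in each list at 7 days and in the knockdown, both against untreated cells, as 1 point a gene (orange called higher, blue called lower, grey no call) with the median as a black line. The substrates have a median of -0.47 in the knockdown and of 0.05 at 7 days, and MMP1 is drawn at its fitted value although only a lower bound is meaningful. MMP1, MMP10, THBS2 and ADAMTS19 are drawn although they passed the filter only through the libraries at 7 days.

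The genes whose log2 CPM followed a member most closely over the 20 libraries were sought for the 3 members with the widest range of group means. For MMP9, with a range of 2.28 on the log2 scale, they were COL1A1 (Pearson r = 0.973), PGD (0.972) and PARP16 (0.968). For TIMP1, with a range of 1.35, they were CST7 (0.981), SERPINA1 (0.978) and TIGD7 (0.978). For MMP16, with a range of 0.84, they were CPD (0.980), PLCXD2 (0.979) and GALNT4 (0.974). Such values reflect 4 group means more than 20 separate points, share libraries and depth, and are given as a description.

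The TIMP genes of this set lie in or near other genes, which matters where reads could be counted for a neighbour. In GENCODE 29, TIMP1 on chromosome X lies within SYN1 and TIMP3 on chromosome 22 within SYN3, each on the other strand and with 0 shared exonic bases. SYN1 had 95 to 220 counts a library and SYN3 17 to 69. SYN3, a synapsin, was higher at 7 days (log2 fold change 1.20, SE 0.19) with overlapping libraries, while TIMP3 had no call at that time. TIMP2 on chromosome 17 shares 198 exonic bases, 3.52% of its length, with CEP295NL on the same strand, which had 505 to 1051 counts a library, and 367 bases (6.52%) with the antisense gene AC022966.1. TIMP4 on chromosome 3 lies within SYN2 on the other strand and shares 10.3% of its exonic bases with it. MMP14 on chromosome 14 and MMP15 on chromosome 16 overlap no annotated gene.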

How the data were processed

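The authors deposited whole-number read counts per gene for all 20 libraries, with no normalization, and a gene length in bases (width). Per the labels, reads were demultiplexed and trimmed (bcl2fastq, Trimmomatic) and aligned with STAR 2.4.2a to hg19. The counting tool, annotation and strand setting are not given in the sources used here. Of the genes 1679 had no symbol and 1217 had 0 counts throughout.

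Counts were analysed with edgeR 4.0.16 in R 4.3.3: filterByExpr with a minimum count of 10, TMM factors and 1 quasi-likelihood model of the 4 groups without covariates. The p-values were adjusted over 14992 genes by the Benjamini-Hochberg method, standard errors came from the F statistic, and log2 CPM used a prior count of 2. Exact permutation tests (252 splits) used SciPy 1.17.1. On simulated data for 7 days against untreated cells, with 14992 genes, 89 of 100 genes at a log2 fold of 1, 97 of 100 at 2 and 6 of 14792 unchanged genes were called.

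The members, gene lists and tests were chosen with earlier results of these data known. All members were named in every comparison, and from each list up to 4 called genes a comparison with the largest change and no overlap between libraries. RECK, FURIN, LRP1, ADAM10, ADAM17, ADAMTS5, ADAMTS19, SYN1, SYN2, SYN3, CEP295NL, AC022966.1 and the cell type markers were named outside this rule, after their values were seen. Bounds against 3 counts cover counting error only. Alternatives were other scaling factors, DESeq2 1.42.0, other filters, thresholds and corrections, lane or replicate number as a factor, the groups or the shared lane alone, and leaving out each library. GENCODE 29 gave overlaps between genes and RefSeq GRCh38.p14 the promoters, and the promoter coordinates are of that build, whereas the counts are on another.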

Additional observations from a re-analysis of the deposited data

Results flagged for a closer look

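Within the groups, 40 sets of 5 libraries (10 genes in 4 groups, NFKBIA included) were searched for a highest or lowest library far from the rest (Dixon's criterion, 0.71), of which chance alone marks about 1 in 20. In untreated cells replicate 5 was far above the others for MMP2 (1221 CPM) and for MMP15 (24.6 CPM). At 90 minutes replicate 1 was far below the others for MMP2 (897 CPM) and for MMP16 (80.2 CPM). Untreated replicate 5 is the untreated library of lane 3 and the one with the fewest counts, and the part of lane or depth was not tested.

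The effect of irradiation differed between 7 days and 90 minutes for 4 members, by the direct contrast in edgeR at a log2 fold change over 0.5, beside 16.8% of all genes tested called higher and 12.6% lower. At any fold, 7 members and 60.9% of all genes had an edgeR adjusted p under 0.05. The difference between the log2 fold changes was -0.65 for MMP9, 0.58 for MMP14, 0.55 for MMP16 and 1.34 for TIMP1.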

How the results depend on the processing

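Of 54 fold changes (9 members in 6 comparisons), 42 kept their direction and their side of the threshold under every alternative run at the same threshold on the fold. Of 1107 values, 7 lost the call, 2 gained it and 15 turned sign. With lane as a factor, MMP24 in the knockdown lost its call against untreated cells (-0.67, edgeR adjusted p = 0.075) and 90 minutes (-0.53), as did TIMP3 in the knockdown against 90 minutes (-0.47) and at 7 days against the knockdown (0.43; 0.42 within the shared lane). MMP2 at 7 days (-0.57) and MMP15 in the knockdown (-0.72) gained one. MMP16 at 7 days against 90 minutes lost its call with Bonferroni correction (0.55) and without replicate 1 at 90 minutes (range without single libraries 0.48 to 0.55). The values that turned sign were not called: MMP14 at 90 minutes (-0.01) had 0.0102 by library size alone, 0.0060 with only these groups fitted and -0.0264 to 0.0033 without single libraries; TIMP2 in the knockdown against 90 minutes (-0.01) had 0.0326 with upper-quartile factors, 0.0232 by library size and -0.0347 to 0.00997 without single libraries; MMP24 at 7 days against 90 minutes (0.02) had -0.0093 without a filter, -0.0064 with lane, -0.0217 within the lane and -0.0633 to 0.0389 without single libraries; with lane, MMP15 at 7 days had -0.0251 and MMP16 in the knockdown -0.12. The cause was not tested. Without a threshold on the fold 4 members at 90 minutes, and 7 each at 7 days and in the knockdown, would be called against untreated cells. With a threshold of 1 only TIMP1 of the members would be called at 7 days, only MMP9 in the knockdown and none at 90 minutes.

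Counts over all genes moved more. At 90 minutes they were 312 higher and 236 lower, 1781 and 2039 with lane, 1668 and 2032 within the shared lane, and 94 lower with only these groups fitted. Without single libraries the lower count ran from 157 (without replicate 2 at 90 minutes) to 343. In the knockdown lane gave 1994 and 2094 (777 and 1129 without it), and against 90 minutes 527 and 659 (981 and 1140). Library size alone gave 971 higher and 924 lower for the knockdown. With no threshold on the fold the higher and lower counts were 1657 and 1534 (90 minutes), 4935 and 4685 (7 days), 2921 and 3157 (knockdown), 4799 and 4332 (7 days against 90 minutes), 4456 and 4153 (7 days against knockdown), and 3062 and 3183 (knockdown against 90 minutes). With a threshold of 1 they were, in the same order, 65 and 25, 1146 and 680, 217 and 307, 1119 and 507, 1116 and 415, and 271 and 362. Bonferroni correction gave 199 and 57 at 90 minutes, 1396 lower at 7 days, 355 and 544 in the knockdown, 914 lower at 7 days against the knockdown, and 452 and 644 in the knockdown against 90 minutes.

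Replicate numbers are shared between groups but did not pair the libraries: same-numbered libraries had correlations of -0.25 to 0.12, and 2 of 20 matched their own number best. With the replicate number as a block, 310 genes were higher and 186 lower at 90 minutes, 2534 and 2094 at 7 days and 777 and 1072 in the knockdown, and no call of a member changed. A comparison within a lane could not be made for 7 days or the knockdown against untreated cells, or for the knockdown against 90 minutes. Depth was lowest for MMP15 among the members tested, at 410 to 908 counts a library.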
